A study of Mus musculus with 9 samples.

Results

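The genes described here are 9 factors that carry the circadian clock's timing to other genes or feed back on its core loop: the PAR bZIP factors Dbp, Tef and Hlf, their repressor Nfil3, the basic helix-loop-helix repressors Bhlhe40 and Bhlhe41, Ciart, the nuclear receptor Rora and the deubiquitinase Usp2. They were chosen by name, with earlier results of these data known. All 9 were found among the 56805 genes of the deposited table, and all 9 passed the filter on low values that left 15279 genes for testing. RNA came from the tibialis anterior (TA) of the left hind limb, a shin muscle made mostly of fast fibres, in male mice aged 13 months. There were 3 mice labelled Svil-KO, 3 labelled Svil-Mut and 3 wild-type (WT) mice, each sequenced as 1 library in a single labelled batch. The labels name no allele, promoter or Cre line, do not say which part of Svil is altered in either genotype, and state no time of day for the collection of muscle. Replicates are numbered 1, 3 and 4 in Svil-KO, 1, 2 and 4 in Svil-Mut and 1, 3 and 4 in WT, and values are given in that order throughout.

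The core clock is a transcriptional loop in which CLOCK and BMAL1 activate genes through E-box sequences, and PER and CRY proteins then repress them. DBP, TEF and HLF bind a shared element, the D-box, in many rhythmic genes, while NFIL3 binds the same element as a repressor. BHLHE40 and BHLHE41 (DEC1 and DEC2) and CIART (CHRONO) repress CLOCK and BMAL1 directly, RORA activates Bmal1 in competition with the REV-ERB repressors, and USP2 removes ubiquitin from clock proteins. In skeletal muscle the clock is known for timing fuel use, and several of its genes also respond to hormones, feeding and contraction.

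The unit throughout is the normalized count, the number of reads of a gene divided by a size factor for its library. Depth was 36234428 to 48762188 reads per library. Svil, the altered gene, encodes supervillin, an actin-binding protein of the cell cortex, and had 7402, 6746 and 6656 normalized counts in Svil-KO, 4615, 3939 and 4582 in Svil-Mut and 8686, 9373 and 8407 in WT, so the genotypes did not overlap and the Svil-KO libraries kept most of the Svil reads of WT. Since the labels do not place the alteration within the gene, these gene counts do not check the genotype labels. All 11 skeletal fibre markers, Acta1, Ckm and Myh4 among them, were expressed, and their summed level was 7966000 to 8890000 in Svil-KO, 9393000 to 9934000 in Svil-Mut and 7910000 to 8423000 in WT. A whole muscle holds several cell types, and in such bulk samples fewer cells of a type and less RNA per cell cannot be told apart.

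Among the 9 genes, the repressors Bhlhe40 and Ciart had higher levels in Svil-Mut than in WT muscle without overlap between the libraries. Nfil3 had a higher mean with overlap. The PAR bZIP activators, Bhlhe41, Rora and Usp2 had smaller log2 fold changes, from -0.08 (Bhlhe41) to 0.19 (Rora). Their SE reached 0.26 (Dbp), so larger differences were not excluded for each of them. For Dbp only the means were close, since every Svil-Mut library lay outside the narrow WT range, on both sides of it. By limma, none of the 9 genes passed the threshold over all genes tested, a Benjamini-Hochberg adjusted p under 0.05. In Svil-Mut against WT, limma called 0 of the 9 genes, where it called 0.0393% of all genes tested. EdgeR also called 0, with the same share of all genes, and DESeq2 called 2, Bhlhe40 and Ciart, where it called 176 genes in all, 1.18% of those it tested. Without adjustment, 3 of the 9 had a limma p under 0.05, all higher in Svil-Mut, where 4.71% of all genes were higher at that threshold and 10% were past it in either direction. Libraries did not overlap for 2 of the 9, both higher, where this held in that direction for 7.13% of all genes and in either direction for 13.9%. The median log2 fold change was 0.11 over the 9 genes and -0.0046 over all genes tested, and 5 of the 9 values lay above 0, where 49.3% of all genes did.

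Svil-KO muscle showed no such pattern against WT. Limma called 0 of the 9 genes, where it called 0% of all genes tested, and edgeR (0% of all genes) and DESeq2 (0.0262%) called 0 of the 9 too. Without adjustment, 0 of the 9 had a limma p under 0.05, where 4.11% of all genes did. Every one of the 9 genes overlapped between Svil-KO and WT libraries, where 10.7% of all genes did not. Their median log2 fold change was 0.06, against 0.0031 over all genes, and 7 of the 9 values lay above 0, where 50.6% of all genes did. Without Svil-KO replicate 4, 1 gene, Ciart, reached an unadjusted p under 0.05. Both comparisons share the WT libraries, so they are not independent of each other.

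**Figure D1:**
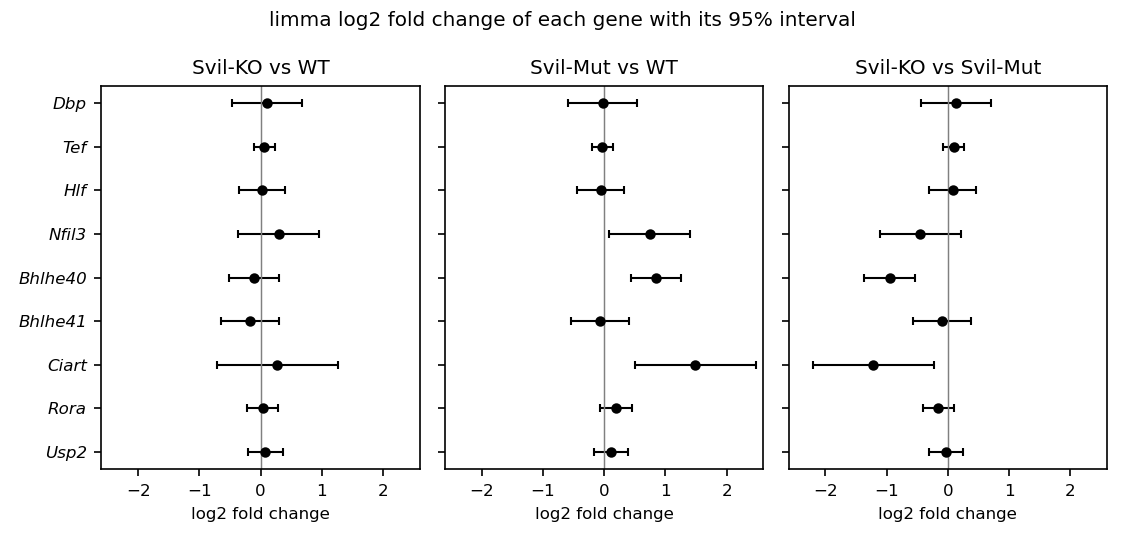
Log2 fold change of each of the 9 genes (points) with its 95% interval from the limma fit over all 9 libraries (bars), in the 3 comparisons; the grey line marks no difference. In Svil-Mut against WT the intervals of Nfil3, Bhlhe40 and Ciart lie above 0, in Svil-KO against WT all 9 intervals span 0, and in Svil-KO against Svil-Mut those of Bhlhe40 and Ciart lie below 0.

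Svil-KO and Svil-Mut were also compared with each other, which tests whether their differences from WT differ. Limma called 0 of the 9 genes, where it called 0.0458% of all genes tested. EdgeR called 0, with the same share of all genes, and DESeq2 called 1, Bhlhe40, where it called 216 genes in all, 1.47% of those it tested. Without adjustment, 2 of the 9 had a limma p under 0.05, Bhlhe40 and Ciart, both lower in Svil-KO, where 4.67% of all genes were lower at that threshold and 10.2% were past it in either direction. Bhlhe40 was also the 1 gene of the 9 whose libraries did not overlap, lower in Svil-KO, where this held in that direction for 7.66% of all genes and in either direction for 15.2%. The median log2 fold change was -0.09 over the 9 genes and 0.0089 over all genes tested, and 3 of the 9 values lay above 0, where 51.4% of all genes did. Nfil3 had a log2 fold change of -0.45 (95% interval -1.11 to 0.21, adjusted p = 0.648) and Rora one of -0.16 (-0.41 to 0.10, adjusted p = 0.693). Those of Bhlhe41 (-0.09) and Usp2 (-0.03) were smaller.

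The 9 genes differ widely in how strongly TA muscle expresses them. Per kilobase of annotated exons, Usp2 averaged 2636 ± 162 normalized counts in Svil-KO, 2698 ± 281 in Svil-Mut and 2519 ± 445 in WT (SD, n = 3). Tef followed with 1678 ± 73.2 in Svil-KO, 1574 ± 107 in Svil-Mut and 1608 ± 95.6 in WT. In WT muscle the order then ran from Bhlhe40 (1023 ± 182) to Dbp (793 ± 13.0), Nfil3 (629 ± 187), Rora (470 ± 61.2), Bhlhe41 (152 ± 18.8), Ciart (111 ± 13.0) and Hlf (85.6 ± 13.6), each per kilobase. Of the neighbours in that order, Dbp and Nfil3, Nfil3 and Rora, and Ciart and Hlf were closer than the sum of their SDs. Of the PAR bZIP genes, Tef was thus the most and Hlf the least abundant per length. The length used is that of all annotated exons of a gene together, not of the transcripts expressed, so the order could differ by transcript. In Svil-Mut muscle Bhlhe40 (1825 ± 206) had a higher mean per kilobase than Tef, though these were closer than the sum of their SDs. Ciart (319 ± 84.6) had a higher mean there than Bhlhe41 (149 ± 46.7).

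**Figure D2:**
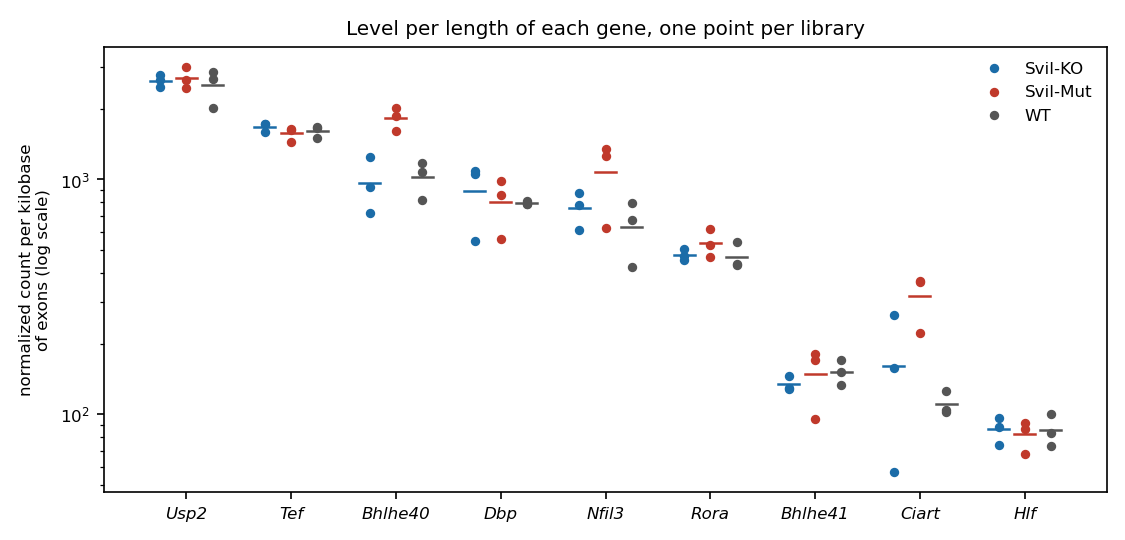
Normalized count per kilobase of annotated exons (log axis) for each gene, ordered by its WT mean; each point is 1 library, bars are genotype means, and Svil-KO, Svil-Mut and WT stand left to right within a gene. Usp2 and Tef are highest and Hlf lowest in WT, and Bhlhe40, Nfil3 and Ciart have their highest means in Svil-Mut.

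The PAR bZIP genes encode activators that share a proline- and acidic-rich region and a leucine zipper. Dbp, whose RNA is among the most strongly rhythmic in many mouse tissues, lies on chromosome 7 (GRCm38, 45705088 to 45710203, plus strand). Its normalized counts were 3239, 3168 and 1633 in Svil-KO, 2938, 1676 and 2562 in Svil-Mut, and 2354, 2417 and 2346 in WT. The WT libraries lay within 1.03-fold of each other, while the highest and lowest differed 1.98-fold in Svil-KO, where replicate 4 was low, and 1.75-fold in Svil-Mut, where replicate 2 was low. This difference in spread was not tested. The means lay close together, with a log2 fold change of 0.11 ± 0.26 SE in Svil-KO against WT (95% interval -0.46 to 0.68, limma adjusted p = 0.997) and -0.03 ± 0.26 SE in Svil-Mut against WT (-0.60 to 0.54, adjusted p = 0.985). The sign of both values changed when single libraries were left out, and for Svil-KO the value was 0.43 without replicate 4. On the opposite strand, 539 bases of exons of Sphk2, which encodes a sphingosine kinase and averaged 572 normalized counts, overlap 18% of the Dbp exon bases. The library kit does not mark strand, so reads of that stretch cannot be assigned to either gene with certainty.

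Tef, on chromosome 15 (81802421 to 81826863, plus strand), was the most even of the 9 genes. It had 13569, 13495 and 12537 normalized counts in Svil-KO, 11406, 12914 and 12818 in Svil-Mut, and 13130, 13037 and 11783 in WT. Its residual SD over the 9 libraries was 0.09 on the log2 scale, lower than that of all but 5.85% of the genes tested. The log2 fold change was 0.06 in Svil-KO (95% interval -0.11 to 0.23) and -0.03 in Svil-Mut (-0.20 to 0.14) against WT, with adjusted p-values of 0.997 and 0.936 by limma. Differences larger than 0.23 on the log2 scale in either direction lie outside both intervals.

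Hlf, on chromosome 11 (90336536 to 90390895, minus strand), gave a like picture at a lower level. It had 592, 645 and 497 normalized counts in Svil-KO, 614, 454 and 578 in Svil-Mut, and 669, 558 and 489 in WT, and all genotypes overlapped. Relative to WT the log2 fold change was 0.02 in Svil-KO (95% interval -0.36 to 0.40, adjusted p = 0.999) and -0.06 in Svil-Mut (-0.44 to 0.32, adjusted p = 0.949). As for Dbp, Svil-Mut replicate 2 and Svil-KO replicate 4 were the lowest libraries of their genotypes, and in Svil-KO against Svil-Mut the 3 PAR bZIP genes had log2 fold changes of 0.14 (Dbp), 0.09 (Tef) and 0.08 (Hlf), none with a limma unadjusted p under 0.247.

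Nfil3, also called E4bp4, encodes the repressor that occupies the D-box; it lies on chromosome 13 (52967209 to 52981073, minus strand). It had 1579, 1230 and 1780 normalized counts in Svil-KO, 1262, 2742 and 2553 in Svil-Mut, and 860, 1603 and 1362 in WT. Svil-Mut replicates 2 and 4 lay above every other library, while replicate 1 lay within the WT range. The log2 fold change in Svil-Mut against WT was 0.74 ± 0.30 SE (95% interval 0.08 to 1.41, limma unadjusted p = 0.031, adjusted p = 0.443). It was 0.48 without WT replicate 1, the lowest library, and 1.10 without Svil-Mut replicate 1. In Svil-KO against WT it was 0.29 (-0.37 to 0.96, adjusted p = 0.997), and 0.03 without WT replicate 1. Set against the activators within each library, the ratio of Nfil3 to Dbp counts was 0.488, 0.388 and 1.09 in Svil-KO, 0.43, 1.64 and 0.996 in Svil-Mut, and 0.365, 0.663 and 0.581 in WT. Svil-Mut replicates 2 and 4 and Svil-KO replicate 4 thus had ratios above the WT range, and the other libraries lay within it.

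**Figure D3:**
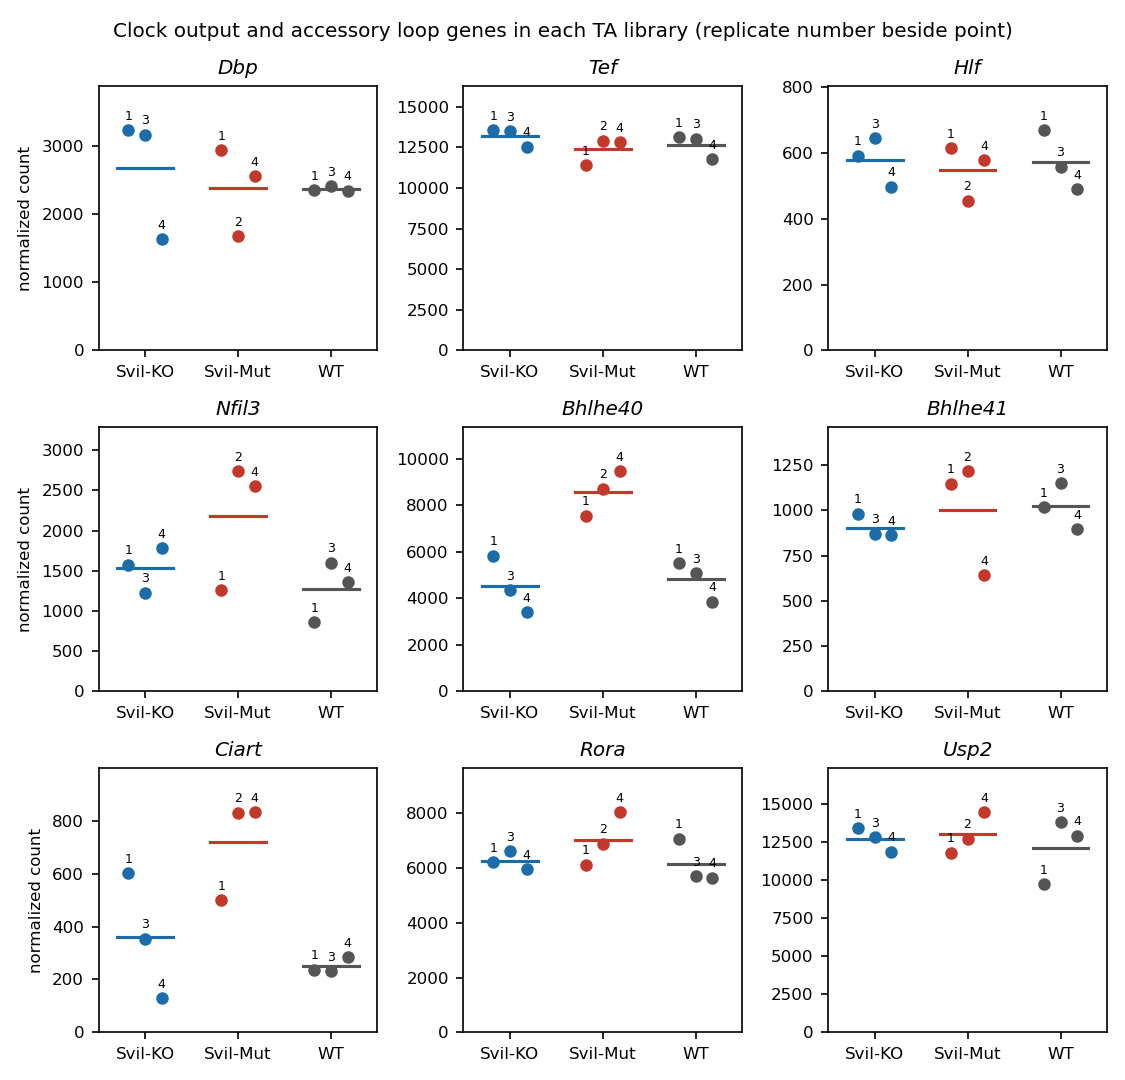
Normalized count (axes start at 0) of each gene in each library, with the replicate number above the point and the genotype mean as a bar. Bhlhe40 runs from 7553 to 9480 in Svil-Mut, above all Svil-KO and WT libraries, Ciart from 500 to 833 in Svil-Mut, above all WT libraries but not above all Svil-KO ones, and Tef is nearly level.

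Bhlhe40 and Bhlhe41 encode related repressors that bind E-boxes and compete there with CLOCK and BMAL1, and Bhlhe40 is also known as a gene induced rapidly by many stimuli. Bhlhe40 lies on chromosome 6 (108660629 to 108666925, plus strand) and had 5836, 4366 and 3398 normalized counts in Svil-KO, 7553, 8729 and 9480 in Svil-Mut, and 5510, 5075 and 3859 in WT. Every Svil-Mut library lay above every other library. The means were 4533 ± 1228 in Svil-KO, 8587 ± 971 in Svil-Mut and 4815 ± 855 in WT (SD, n = 3), so that Svil-Mut was at 178% of WT. The log2 fold change in Svil-Mut against WT was 0.84 ± 0.19 SE (95% interval 0.43 to 1.26, limma unadjusted p = 0.000964, adjusted p = 0.228). Its unadjusted p ranked 64th of the 15279 genes. Over the 22 alternatives run, the fold change was 0.69 to 0.95 and the adjusted p 0.0024 to 0.534, the lowest from DESeq2.

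Svil-KO, by contrast, was close to WT for Bhlhe40, with a log2 fold change of -0.11 (95% interval -0.52 to 0.31, adjusted p = 0.997). Its difference from Svil-Mut was -0.95 ± 0.19 SE (-1.36 to -0.54, limma unadjusted p = 0.000395, adjusted p = 0.145). Over the 22 alternatives that difference was -1.15 to -0.76. The exact 2-sided permutation p for Bhlhe40 was 0.1 in Svil-Mut against WT and in Svil-KO against Svil-Mut, the smallest that 3 against 3 libraries allow.

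Bhlhe41, the paralog on the same chromosome (145858243 to 145865558, minus strand), did not follow it. It had 983, 870 and 863 normalized counts in Svil-KO, 1148, 1217 and 642 in Svil-Mut, and 1017, 1150 and 898 in WT. Svil-Mut replicate 4 was the lowest of the 9 libraries and replicate 2 the highest. The log2 fold change was -0.17 in Svil-KO (95% interval -0.64 to 0.30, adjusted p = 0.997) and -0.08 in Svil-Mut (-0.55 to 0.40, adjusted p = 0.949) against WT, and in Svil-Mut it was 0.22 without replicate 4. The ratio of Bhlhe40 to Bhlhe41 counts within a library, which library scaling does not touch, was 5.94, 5.02 and 3.94 in Svil-KO, 6.58, 7.17 and 14.8 in Svil-Mut, and 5.42, 4.41 and 4.30 in WT. All Svil-Mut ratios lay above all others, with the highest in replicate 4, where Bhlhe41 was lowest. A gene model on the opposite strand, Gm43909, covers 19% of the Bhlhe41 exon bases, but averaged only 5.66 normalized counts.

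Ciart encodes CHRONO, a repressor that binds BMAL1 and whose own gene is a target of CLOCK and BMAL1 through E-boxes in its promoter. It lies on chromosome 3 (95878503 to 95882251, minus strand), and had the largest fold change of the 9 genes in Svil-Mut against WT and the largest residual SD (0.70 on the log2 scale, above that of 80.8% of the genes tested). Its normalized counts were 602, 355 and 128 in Svil-KO, 500, 830 and 833 in Svil-Mut, and 236, 231 and 284 in WT. The WT libraries were close together, every Svil-Mut library lay above them, and the Svil-KO libraries ran 4.69-fold from lowest to highest, on both sides of WT. The means were 362 ± 237 in Svil-KO, 721 ± 191 in Svil-Mut and 250 ± 29.4 in WT (SD, n = 3). In Svil-Mut against WT the log2 fold change was 1.49 ± 0.45 SE (95% interval 0.50 to 2.48, limma unadjusted p = 0.00699, adjusted p = 0.33), 1.37 to 1.73 over the 22 alternatives, with adjusted p-values of 0.0245, by DESeq2, to 0.587. The exact 2-sided permutation p was 0.1, the smallest this design allows.

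In Svil-KO the value for Ciart rested on single libraries. Its log2 fold change against WT was 0.27 (95% interval -0.71 to 1.26, adjusted p = 0.997), 0.89 with Svil-KO replicate 4 left out and -0.22 with replicate 1 left out. Against Svil-Mut it was -1.21 (-2.20 to -0.23, limma unadjusted p = 0.0206, adjusted p = 0.412), and -0.60 without Svil-KO replicate 4 (unadjusted p = 0.0623). Relative to Dbp in the same library, Ciart was at 0.186, 0.112 and 0.0786 in Svil-KO, 0.17, 0.495 and 0.325 in Svil-Mut, and 0.1, 0.0954 and 0.121 in WT, with no overlap between Svil-Mut and WT.

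The promoter of Ciart is shown because it held more E-boxes than any other window searched among these genes. RefSeq promoter windows (GRCm38.p6, 250 bases before to 50 after a transcription start) were found for 8 of the 9 genes, all but Bhlhe40, with 2 for Tef. They were searched on both strands for the E-box (CACGTG), the D-box (TTATGTAA or TTACGTAA), a ROR element (TAGGTCA) and the CRE (TGACGTCA), and no 2 matches in these windows overlap. An E-box is present in 7.15% of all 32851 windows, and 3 or more E-boxes in 0.0883%, the window of Ciart among them. Its matches begin 116, 58 and 44 bases before the start. The stretch shown is chr3:95882252-95882384 on the minus strand, upstream of all annotated exons. Below it stand, for comparison, the E-box of Bhlhe41 (chr6:145865559-145865613, minus strand), that of the second Tef start (chr15:81811236-81811321, plus strand) and the CRE of Hlf (chr11:90390918-90390966, minus strand). All are written 5′ to 3′, with the matched letters in capitals.
Ciart: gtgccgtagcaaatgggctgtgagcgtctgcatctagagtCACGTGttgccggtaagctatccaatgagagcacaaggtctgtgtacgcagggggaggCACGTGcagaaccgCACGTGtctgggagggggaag
Bhlhe41: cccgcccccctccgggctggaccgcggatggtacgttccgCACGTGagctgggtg
Tef: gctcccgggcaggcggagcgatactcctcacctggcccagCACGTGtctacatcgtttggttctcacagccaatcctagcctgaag
Hlf: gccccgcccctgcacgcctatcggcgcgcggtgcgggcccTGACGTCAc

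Single E-boxes were found in the windows of Bhlhe41 and of both Tef starts. In the window of the first Tef start, all 250 bases before the start lie in annotated Tef exons. Of the 250 bases, 159 lie in annotated exons of the gene itself for Dbp, 138 for Bhlhe41, 34 for Nfil3 and 23 for Ciart. The Usp2 window (from 44084670) lies inside the annotated gene, which begins at 44067021, so the region before that outer start was not searched. The part of these motifs in the differences between genotypes was not tested. Hlf holds a CRE, which 1.79% of all windows hold, and Nfil3 a ROR element, which 2.61% hold. The windows of Dbp, Rora and Usp2 hold none of the 4 motifs, and no window of these genes holds a D-box, which 1.06% of all windows do. A match is a match of letters only, and elements outside these windows, farther from the start or within introns, were not searched.

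**Figure D4:**
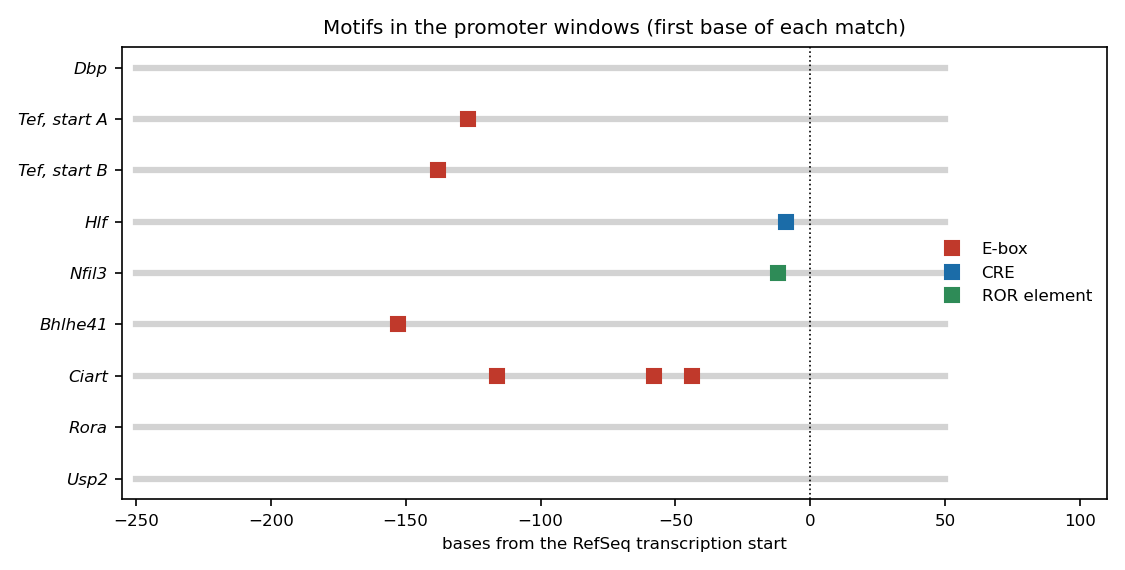
Position of the first base of each motif match (squares, coloured by motif) relative to the RefSeq transcription start (dotted line) in windows of 250 bases before to 50 after it (grey bars), for the 9 windows of 8 genes. Ciart carries 3 E-boxes, Bhlhe41 and each Tef start carry 1, Hlf a CRE and Nfil3 a ROR element.

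Rora encodes the nuclear receptor that activates Bmal1 through ROR elements, and spans 734461 bases of chromosome 9 (68653786 to 69388246, plus strand). It had 6202, 6611 and 5945 normalized counts in Svil-KO, 6115, 6890 and 8039 in Svil-Mut, and 7061, 5709 and 5644 in WT. Svil-Mut replicate 4 was the highest library, and the genotypes overlapped. The log2 fold change was 0.03 in Svil-KO (95% interval -0.22 to 0.29, adjusted p = 0.997) and 0.19 in Svil-Mut (-0.06 to 0.45, limma unadjusted p = 0.127, adjusted p = 0.626) against WT. Gene counts sum the isoforms of Rora, which begin at different starts and were not separated.

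Usp2 encodes a ubiquitin-specific protease that acts on PER and CRY proteins and is itself rhythmic in many mouse tissues. Like Rora it lies on chromosome 9 (44067021 to 44095627, plus strand), and it was the most abundant of the 9 per length. Its normalized counts were 13413, 12827 and 11868 in Svil-KO, 11813, 12712 and 14471 in Svil-Mut, and 9715, 13788 and 12907 in WT, with WT replicate 1 the lowest. Against WT its log2 fold change was 0.08 in Svil-KO (95% interval -0.20 to 0.36, adjusted p = 0.997) and 0.11 in Svil-Mut (-0.17 to 0.39, adjusted p = 0.831), and both were negative without WT replicate 1 (-0.07 and -0.04).

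Of the core loop, 9 of the 10 genes listed were expressed highly enough to test, and none passed over all genes in any comparison. The missing gene was Npas2, which had at most 10.2 normalized counts. In Svil-Mut against WT, 3 of the 9 reached a limma unadjusted p under 0.05, all higher, where 4.71% of all genes were higher at that threshold, with a median log2 fold change of 0.17 and 8 of 9 above 0. They were Arntl, which encodes BMAL1 (means of 886 ± 181 in Svil-Mut and 493 ± 108 in WT, with SD and n = 3, and a log2 fold change of 0.85 at an adjusted p of 0.266), the REV-ERB alpha gene Nr1d1 (3897 ± 789 and 2604 ± 111, with 0.56 at 0.33) and the repressor Per1 (1314 ± 222 and 804 ± 224, with 0.73 at 0.341). Cry1, another repressor, followed with 949 ± 113 in Svil-Mut against 767 ± 129 in WT (log2 fold change 0.31, adjusted p = 0.526). In Svil-KO against WT the median was 0.16, and 1 of the 9 genes, the REV-ERB beta gene Nr1d2, was higher at an unadjusted p under 0.05, where 2.36% of all genes were. Arntl and Nr1d1 are known to peak at opposite phases in mouse tissues. Clock phase was not tested here, and the labels state no time of day for the collection of muscle.

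The 18 tested clock modifiers, kinases, ubiquitin ligases and cofactors of the loop, held 0 genes with an unadjusted p under 0.05 in Svil-Mut against WT (median log2 fold change 0.10) and 1, lower, in Svil-KO against WT, where 1.75% of all genes were lower at that threshold. The smallest p-values in Svil-Mut were those of the kinase Gsk3b (2937 ± 232 in Svil-Mut against 2537 ± 124 in WT, and a log2 fold change of 0.21), the ubiquitin ligase subunit Btrc (0.35) and the casein kinases Csnk1e (0.24) and Csnk1d (0.13), with limma adjusted p-values of 0.506 to 0.626. Of 18 tested genes listed as rhythmic outputs, 2 were higher and 3 lower in Svil-Mut than in WT at an unadjusted p under 0.05, where 5.32% of all genes were lower, and the median was 0.04. Pdk4, a kinase that inhibits pyruvate dehydrogenase, had the smallest p (9149.7 ± 2885 in Svil-Mut against 36483 ± 17861 in WT, with a log2 fold change of -1.91 at an adjusted p of 0.279). The heme synthesis gene Alas1 (-0.34) was also lower, and the cell cycle kinase Wee1 (0.54) and the coenzyme Q gene Coq10b (1.04) were higher, with adjusted p-values of 0.415 to 0.44. In Svil-KO against WT, 0 of these output genes reached an unadjusted p under 0.05.

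**Figure D5:**
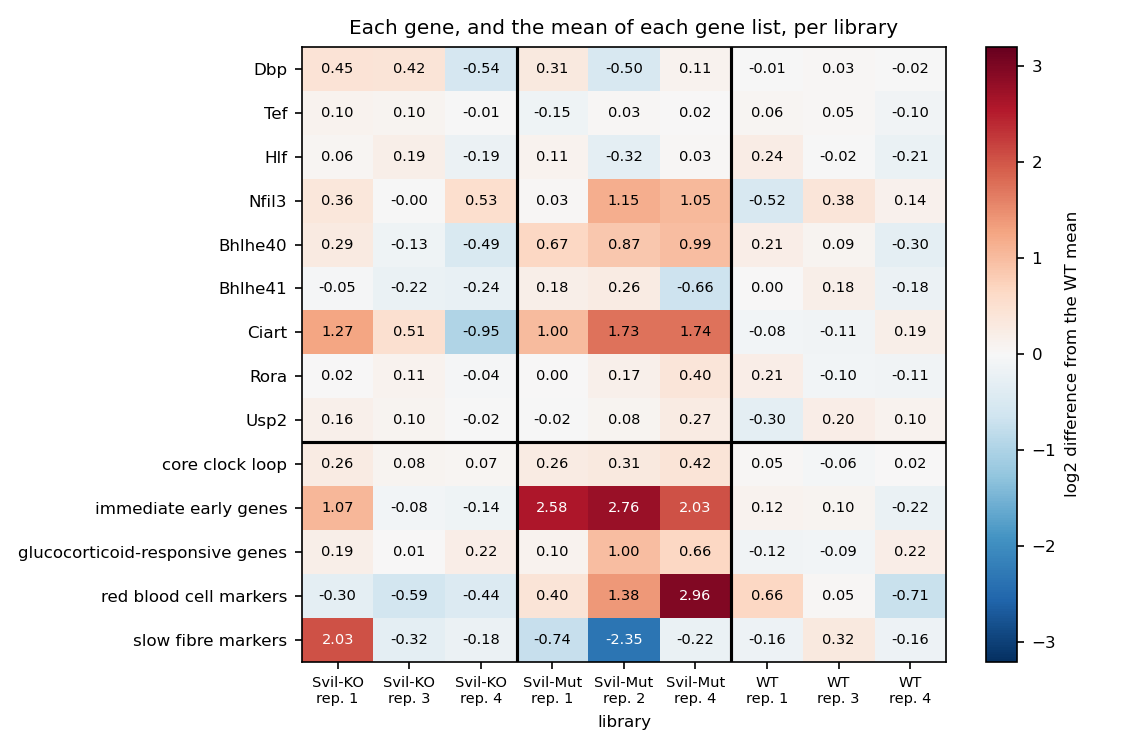
Log2 difference of each of the 9 genes from its WT mean in each library (upper rows), and the mean of that difference over 5 gene lists (lower rows); red is above and blue below the WT mean. Ciart is at 1.00, 1.73 and 1.74 in the Svil-Mut libraries, where the immediate early list is at 2.58, 2.76 and 2.03, and Svil-KO replicate 1 has both Ciart (1.27) and that list (1.07) above WT.

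Immediate early genes, which cells induce within minutes of a stimulus, were high in the same libraries as Bhlhe40 and Ciart. This list was chosen with earlier results of these data known, so its counts are not an independent test. All 20 listed genes were tested, with Fosb at 0 in 4 libraries, all of WT among them, and Egr3 at 0 in 2. The fold changes of Fosb and Egr3 thus depend on the pseudocount. All 20 genes had positive log2 fold changes in Svil-Mut against WT, with a median of 2.23. Limma called 3 of them higher, where it called 0.0262% of all genes higher. They were the AP-1 subunit Fos (2630 ± 183 in Svil-Mut against 222 ± 60.2 in WT, with a log2 fold change of 3.59 at an adjusted p of 3.45e-05), the phosphatase gene Dusp1 (0.91, adjusted p = 0.00428) and the stress factor Atf3 (2.10, adjusted p = 0.0184). Csrnp1 (2.70, adjusted p = 0.0525) did not pass. In Svil-KO against Svil-Mut it called 4 lower, Fos, Dusp1, Atf3 and the transcription factor gene Klf4, where it called 0.0327% of all genes lower. The mean of the list stood above the WT mean by 2.58, 2.76 and 2.03 in the Svil-Mut libraries. In Svil-KO it was at 1.07 in replicate 1, at -0.08 in replicate 3 and at -0.14 in replicate 4. Bhlhe40 and Ciart were likewise highest in replicate 1 of Svil-KO. Within Svil-Mut the list was lowest in replicate 4, where Bhlhe40 was highest, while Ciart was nearly equal in replicates 2 and 4 (830 and 833). Within WT the mean of the list was lowest in replicate 4 (-0.22), where Ciart was highest and Bhlhe40 lowest. The summed count of the list in WT was instead lowest in replicate 3 (21660, against 22330 in replicate 4). The part of this list in the Bhlhe40 and Ciart differences was not tested.

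Glucocorticoid-responsive genes were set beside the 9 genes too, since Nfil3 and Per1 are known to answer to hormones. Of the 14 genes tested, 5 were higher in Svil-Mut at a limma unadjusted p under 0.05, where 4.71% of all genes were, and none was lower. Their median log2 fold change was 0.34, and 0 were called. Of the 14 values, 11 lay above 0, where 49.3% of all genes did. Those of Foxo1 (-0.46), Fkbp5 (-0.30) and Zbtb16 (-0.25) lay below 0, and every Svil-Mut library was below every WT library for Zbtb16. The smallest p-values were those of the cell cycle inhibitor Cdkn1a (949.7 ± 379 in Svil-Mut against 433 ± 72.8 in WT, with a log2 fold change of 1.07 at an adjusted p of 0.23), the kinase Sgk1 (0.38, adjusted p = 0.283), the metallothionein Mt1 (1.99, adjusted p = 0.325) and the mTOR inhibitor Ddit4 (1.90, adjusted p = 0.344). The mean of the list was 0.10, 1.00 and 0.66 above the WT mean in Svil-Mut replicates 1, 2 and 4, where Nfil3 was at 0.03, 1.15 and 1.05. In replicate 2, Mt1 (13303), Ddit4 (3943) and Mt2 (1021) had their highest normalized counts of all libraries. The part of these genes in the Nfil3 values was not tested.

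Markers of other cell types also differed between libraries. The 7 red blood cell markers had a summed normalized count of 7028 to 10980 in Svil-KO, 10670 to 53480 in Svil-Mut and 9117 to 13150 in WT, with Slc4a1 at 0 in 3 libraries. The 8 slow fibre markers summed to 76230 to 120000 in Svil-KO, 38990 to 64490 in Svil-Mut and 80290 to 118700 in WT, with no marker at 0. Most of each sum was Mb. The mean log2 difference of the slow list from the WT mean was 2.03, -0.32 and -0.18 in Svil-KO. It was -0.74, -2.35 and -0.22 in Svil-Mut and -0.16, 0.32 and -0.16 in WT. Svil-KO replicate 1 and Svil-Mut replicate 2 thus stood apart in opposite directions, with Myh7 at 2476 and 14.3 normalized counts there. Sums of 10 endothelial markers (9980 to 12030 in Svil-KO, 10040 to 13030 in Svil-Mut, 10190 to 12670 in WT) overlapped between all genotypes. So did those of 9 tested macrophage markers (1423 to 3231, 1422 to 3718 and 1413 to 1953 in Svil-KO, Svil-Mut and WT), 10 fibro-adipogenic markers (48840 to 51010, 37110 to 51800 and 48300 to 71980), 8 adipocyte markers (8502 to 9775, 7079 to 10660 and 9664 to 11450) and 8 neural and Schwann cell markers (3890 to 6433, 3639 to 4796 and 4151 to 5280). Adgre1 was at 0 in 1 library and Itgam in 3 among the macrophage markers, and Lep and Cidec in 2 each and Retn in 1 among the adipocyte markers. Most of each adipocyte sum was Fabp4. The mean log2 difference of the adipocyte list from the WT mean was -0.59, -1.53 and -0.87 in Svil-KO. It was -2.63, -3.10 and 0.43 in Svil-Mut and -0.46, 0.78 and -0.32 in WT. In Svil-Mut against WT, 4.71% of all genes were higher and 5.32% lower at a limma unadjusted p under 0.05. At that threshold 5 of the 7 red blood cell markers were higher, and 2 of the 8 slow fibre and 4 of the 8 adipocyte markers were lower. Of the 11 skeletal fibre markers 4 were higher (Acta1, Actn3, Atp2a1 and Ckm) and 1 lower (Myh2), and 1 fibro-adipogenic marker (Col1a2) and 1 neural marker (Ncmap) were lower. No endothelial or macrophage marker reached it, and 0 markers of any list were called over all genes in any comparison. Their part in the values of the 9 genes was not tested.

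To see which transcripts varied most like each of the 9, the profile of each gene over the 9 libraries, centred on its own mean, was compared with that of 10898 other genes by the root mean square difference on the log2 scale. The profile most like that of Ciart was Nr4a1, an immediate early nuclear receptor (0.37, where Ciart itself varied by 0.86 around its mean), followed by the p38 kinase gene Mapk11 (0.40). Bhlhe40 (own variation 0.49) was most like the transcription factor gene Maf (0.12) and the mannosidase gene Man1a (0.13). Nfil3 (0.49) was most like Tbx3 (0.18), a T-box factor, and the splicing factor gene Tra2b (0.21), with Per1 the 17th nearest. Dbp (0.34) was most like Chchd6 (0.12), a mitochondrial cristae protein gene, and Plcd1 (0.14), and Bhlhe41 (0.27) most like Cmbl (0.11) and Tmem117 (0.12).

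For the genes with even levels the differences were small throughout. Tef (own variation 0.08) was nearest to Tm9sf3 (0.03) and Sypl (0.05), Hlf (0.18) to Pias1 and Zfp688 (0.10 each), Rora (0.16) to Tor1aip1 and Polr3gl (0.07 each), and Usp2 (0.16) to Ccdc127 (0.08) and Copz2 (0.09). By this measure, which depends on the size of the variation as well as its direction, the 9 genes were seldom near each other. Bhlhe40 was the 16th nearest gene to Ciart and Hlf the 44th nearest to Dbp, while for each of the other 7 the nearest of the 9 ranked 361st or lower.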

How the data were processed

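RNA was measured in 9 TA muscle libraries, 3 per genotype. Per the labels' protocols, cDNA was made from an oligo(dT) primer with a SMARTer v4 kit for low input and tagmented with Nextera XT, which marks no strand. Per the submitters' processing notes the tools were HISAT2, featureCounts and DESeq2 and the build mm10. Versions and annotation were not given in the sources used here. Per the labels and values, the authors deposited a signal for each gene in each library, namely reads over that library's size factor. Divided by the step of their library, 100% of values came out whole to within 0.001. The inverse of these steps, which gave back whole reads, equalled median-of-ratios factors. Such scaling assumes that most genes do not differ and leaves transcript length uncorrected.

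Differences were tested with limma, with a variance trend, on log2(normalized count + 1), in 1 model of genotype over the 9 libraries. A gene entered where 3 or more libraries had at least 10 normalized counts, and p-values were adjusted by the Benjamini-Hochberg method over the 15279 genes. Fold changes on this scale understate changes of low genes. Genotype labels gave the groups and titles gave the replicate numbers. P-values measure the spread between these libraries, 1 per mouse.

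The 9 genes and the gene lists were chosen with earlier results of these data known, and the 9 genes were left out of the lists. Named are all 9 genes, every list gene called, the up to 4 list genes with the smallest p in Svil-Mut against WT, and the 2 genes most like each of the 9 among those averaging at least 50. Further list genes are named where they show a limit of their list or the direction of a marker. Exon lengths, coordinates and overlaps came from GENCODE M21 (GRCm38), matched by symbol, and promoters from RefSeq. Simulated counts were used to test the limma step. Protein sequences were not used here. A listed red blood cell marker is not reported here.

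Alternatives were pseudocounts of 0.5 and 10, no filter, a mean of at least 50, equal totals, quantile normalization, no variance trend, robust variance, library weights, only 2 genotypes, a replicate block, an adjusted p of 0.10, each library left out in turn, and DESeq2 or edgeR (quasi-likelihood) on the recovered reads. Software was R 4.3.3 with DESeq2 1.42.0, edgeR 4.0.16 and limma 3.58.1, and Python 3.11.15 with matplotlib 3.10.9 for figures.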

Additional observations from a re-analysis of the deposited data

How the results depend on the processing

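No value of the 9 genes passed an adjusted p under 0.05 by limma or edgeR under any alternative. DESeq2 on the recovered reads called 2 of the 9 in Svil-Mut against WT, Bhlhe40 (adjusted p = 0.0024) and Ciart (adjusted p = 0.0245), and 1 in Svil-KO against Svil-Mut, Bhlhe40 (adjusted p = 0.000331). Over all genes, DESeq2 called 4 in Svil-KO against WT, 176 in Svil-Mut against WT and 216 in Svil-KO against Svil-Mut, where limma called 0, 6 and 7; the cause was not tested. The Svil-Mut against WT count was 19 with a pseudocount of 10, 16 with a mean of at least 50 or robust variance, 14 with only 2 genotypes and 20 at an adjusted p of 0.10, and 4 to 18 without single libraries, with 17 and 12 when Svil-KO replicates 1 and 3 were dropped and 18 and 13 when Svil-Mut replicates 1 and 4 were. The Svil-KO against Svil-Mut count was 19 at an adjusted p of 0.10, and 4 to 13 without single libraries (4 when Svil-KO replicate 4 was dropped and 13 when replicate 1 was).

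Bhlhe40 and Ciart in Svil-Mut against WT kept their sign and an unadjusted p under 0.05 under all 22 alternatives, and Nfil3 kept its sign under all 22 and that p under 16. Sign changes, 37 among 594 values, touched only values of at most 0.27 in size. Left-out libraries gave ranges that span 0 in Svil-KO against WT for Dbp (-0.0606 to 0.43), Hlf (-0.0882 to 0.14), Bhlhe40 (-0.31 to 0.0842), Ciart (-0.22 to 0.89), Rora (-0.0234 to 0.14) and Usp2 (-0.0724 to 0.18). In Svil-Mut against WT this held for Dbp (-0.19 to 0.21), Tef (-0.0821 to 0.0261), Hlf (-0.17 to 0.0706), Bhlhe41 (-0.24 to 0.22) and Usp2 (-0.0425 to 0.21), and in Svil-KO against Svil-Mut for Dbp (-0.10 to 0.46), Hlf (-0.052 to 0.18), Bhlhe41 (-0.39 to 0.073) and Usp2 (-0.0964 to 0.04998). With library weights, Dbp (0.0205) and Bhlhe41 (0.0307) in Svil-Mut against WT and Usp2 (0.0068) in Svil-KO against Svil-Mut changed sign, as did Dbp in Svil-Mut against WT by edgeR (0.0113) and DESeq2 (0.0111).

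No pairing by replicate number was seen over all genes. Same-numbered libraries of different genotypes deviated together with correlations of -0.0556 to 0.0444 across genes, and differently numbered ones with -0.0387 to 0.0613. Correlations over all genes cannot show whether a pairing touches few genes. With a replicate block, Dbp (0.29) and Hlf (0.11) in Svil-Mut against WT, and Dbp (-0.18), Hlf (-0.0874) and Bhlhe41 (0.042) in Svil-KO against Svil-Mut changed sign, and 0 of the 9 genes were called in any comparison.

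With 3 libraries a genotype, the precision differed between genes: the SE of a log2 fold change was 0.077 for Tef and 0.45 for Ciart. Where a library left out leaves a genotype with 2, its spread is taken from all libraries.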
